A study of Mus musculus with 2 samples.

Results

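Genes of glucose breakdown and of the response to low oxygen were examined in cells from colonies grown from mouse aorta. The 10 genes are Slc2a1, Hk2, Pfkl, Aldoa, Pgk1, Eno1, Pkm, Ldha, Bnip3 and Ndufa4l2, and they were taken by symbol from the 32285 genes of the deposited matrix, in which they fill 11 rows because Aldoa has 2 entries. Per the labels, cells of the dorsal aorta of 2 male C57BL/6J mice aged 12 weeks were cultured in methylcellulose, which holds the offspring of a progenitor together as a colony, over 14 days. Colonies of the macrophage type, CFU-M (colony-forming unit macrophage), were taken apart, sorted for viability with DAPI, marked with lipid-anchored DNA tags (MULTI-seq) and pooled into 1 droplet library made with the 10x 3′ v3.1 kit. No treatment or genetic change is given in the labels, and nothing in them ties a cell to 1 of the 2 mice. The library with files is 1 sample, so cells are not replicates, no p-value is given, and every interval covers counting error only. The labels' other sample, a library of tag sequences, was not analysed here.

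Glycolysis turns glucose into pyruvate in the cytosol. Slc2a1 (the glucose transporter GLUT1) brings glucose in, Hk2 (hexokinase) traps it by phosphorylation, Pfkl (liver-type phosphofructokinase) commits it to breakdown, and Aldoa (aldolase) splits the sugar. Pgk1 (phosphoglycerate kinase) and Pkm (pyruvate kinase) each make ATP, Eno1 (enolase) acts between them, and Ldha (lactate dehydrogenase A) turns pyruvate into lactate. When oxygen is low, hypoxia-inducible factors (HIFs) escape degradation and bind a short DNA core near many of these genes. Bnip3, a mitochondrial protein that marks mitochondria for removal, and Ndufa4l2, a mitochondrial protein related to the respiratory chain subunit Ndufa4, are also known HIF targets.

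The HIF core was searched on both strands as ACGTG or GCGTG in the 250 bases before each start site, from RefSeq windows of build GRCm38.p6. Overlapping matches were counted once. Of 32851 windows of this length, 38.6% held a match, 13.5% held 2 or more, 4.68% held 3 or more and 1.52% held 4 or more. The 9 members found in the table had 15 windows, of which 13 held a match. Some windows of Aldoa and of Eno1 overlap and hold the same match, which counts in each. Each of the 9 had a match in at least 1 window. The 38.6% is a share of windows, and the share of all genes with a match in at least 1 window was not computed. Ndufa4l2 was not found in it. The windows of Bnip3 and Pgk1 and 1 window of Ldha are shown with matched letters in capitals. Bnip3 and Pgk1 had the highest ratios between fibroblast-like and mast cells after Ndufa4l2, and Ldha had the lowest.

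Bnip3, chr7:138909507-138909756, minus strand: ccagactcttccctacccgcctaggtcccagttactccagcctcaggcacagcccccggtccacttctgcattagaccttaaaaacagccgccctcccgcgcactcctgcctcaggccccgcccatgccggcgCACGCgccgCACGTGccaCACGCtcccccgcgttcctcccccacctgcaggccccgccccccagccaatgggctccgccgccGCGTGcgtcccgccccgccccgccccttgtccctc
Ldha, chr7:46845554-46845803, plus strand: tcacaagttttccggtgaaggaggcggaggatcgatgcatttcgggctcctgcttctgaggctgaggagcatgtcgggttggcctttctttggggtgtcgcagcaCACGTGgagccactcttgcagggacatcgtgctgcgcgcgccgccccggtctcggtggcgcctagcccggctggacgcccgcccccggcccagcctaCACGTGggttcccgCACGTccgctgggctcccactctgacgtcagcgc
Pgk1, chrX:106186850-106187099, plus strand: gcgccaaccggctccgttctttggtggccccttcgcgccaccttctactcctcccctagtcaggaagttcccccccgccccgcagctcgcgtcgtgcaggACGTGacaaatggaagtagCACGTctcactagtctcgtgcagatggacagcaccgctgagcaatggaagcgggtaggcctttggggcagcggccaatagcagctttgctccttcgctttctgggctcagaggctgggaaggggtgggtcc

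The Bnip3 window held 4 matches, the Ldha window shown 3 and the Pgk1 window 2. Another Ldha window, not shown, held 1, so the order of Ldha and Pgk1 depends on the window. A match is a string of letters and says nothing of binding.

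The matrix held 34813 barcodes with a median of 13116 unique molecular identifiers (UMIs, each marking 1 captured RNA molecule). After filters and removal of called doublets, 30755 cells remained, and 27775 of them were thinned to 6000 UMIs each so that classes of different depth could be compared. Levels are given as CPM, a gene's thinned UMIs summed over a class and scaled to 1 common total of UMIs, each with an exact Poisson 95% interval. Clusters were named from fixed marker lists, with the 10 genes and the other listed genes left out of the clustering. Mast cell-like cells made up 72.4% of kept cells, fibroblast-like cells 17.9% and macrophage-like cells 8.98%, and 0.722% stayed unnamed. The labels name macrophage colonies, but the mast cell markers (Cma1, Cpa3 and 5 others) dominated. Xist RNA was present in all 3 classes, at 359 to 705 CPM, beside the Y-linked Ddx3y at 19.2 to 53.8 CPM, although the labels give male mice. Cell-cycle scores called 15547 thinned mast cells non-cycling, 1698 in S phase and 3081 in G2/M, and 15.2% of thinned mast cells lay within 0.05 of the boundary. There were 2096 macrophage-like and 5281 fibroblast-like thinned cells. Before thinning, the median depth was 10805 UMIs in non-cycling mast cells, 20118.5 in S phase, 19442 in G2/M, 31787 in fibroblast-like cells and 10651.5 in macrophage-like cells. Among markers of other cell types, those of megakaryocytes summed to 2607, of erythroid cells to 1326, of basophils to 502 and of neutrophils to 277 CPM in macrophage-like cells. Basophil markers summed to 786 CPM in non-cycling mast cells, adipocyte and monocyte markers to 534 and 512 CPM in fibroblast-like cells, and endothelial markers to at most 16.1 CPM in any class. The part of these markers in the values below was not tested.

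RNA of mast cells was also found in the droplets of the other classes. The 7 mast cell markers stood in macrophage-like cells at 0.265 to 0.314 of their mast cell level, and in fibroblast-like cells at 0.137 to 0.157. All 10 genes were above these ranges in both classes. The range says what level of a gene shared mast cell RNA alone would give, and it is drawn beside the ratios.

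Fibroblast-like cells stood apart from mast cells in most of the 10 genes. At 1.5 times or more, 9 of 10 were higher than in non-cycling mast cells and none was lower, whereas 31.3% of the 10358 genes with a mean of 5 CPM or more were higher and 24.3% lower. The median log2 ratio was 1.87 for the 10 genes and 0.05 for all genes tested. All 10 passed the minimum of 5 CPM. With totals that leave out the 20 most abundant genes, the median of all genes shifted by -0.11 in this comparison and by -0.10 in that of macrophage-like cells.

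Ndufa4l2 differed most. It was at 561 CPM (interval 553 to 570) in fibroblast-like cells and at 6.53 CPM in non-cycling mast cells, 5.40 in S phase, 5.25 in G2/M and 9.30 in macrophage-like cells. The ratio of fibroblast-like to non-cycling mast cells was 86.0 (79.3 to 93.4). At 6000 UMIs per cell, 80.0% of fibroblast-like cells had an Ndufa4l2 UMI against 3.81% of non-cycling mast cells. The level in mast cells was 0.0116 of the fibroblast-like level, under the 0.0151 to 0.0290 at which 6 fibroblast markers stood in the same cells, so the mast cell UMIs are read as background. In macrophage-like cells its share was 0.0166, under the marker range of 0.0203 to 0.0409, and is read in the same way. Ndufa4l2 was among the 10 leading genes of the larger fibroblast-like cluster, although it was not used to form that cluster.

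Bnip3, the other gene that acts on mitochondria, was at 250 CPM (244 to 255) in fibroblast-like cells. Non-cycling mast cells had 37.1 CPM (35.9 to 38.4), S phase mast cells 35.5 (32.0 to 39.4), G2/M mast cells 29.5 (27.1 to 32.1) and macrophage-like cells 28.1 (25.2 to 31.2). Neighbours in this order overlapped below the fibroblast-like level, whereas non-cycling mast cells were clear of G2/M and macrophage-like cells. The log2 ratio of G2/M to S phase was -0.27 (-0.46 to -0.07). The fibroblast-like level was 6.73 times that of non-cycling mast cells.

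Glucose entry and the first steps followed different orders. Slc2a1 was at 54.8 CPM in fibroblast-like cells, 29.4 in non-cycling mast cells, 21.9 in S phase, 20.7 in G2/M and 14.0 in macrophage-like cells, and only the S and G2/M intervals overlapped. Hk2 had another order, with 151 CPM (144 to 158) in the macrophage-like class and 149 CPM (145 to 153) in the fibroblast-like class, which did not differ beyond counting error. It was at 72.5 CPM in S phase, 55.8 in non-cycling and 36.8 in G2/M mast cells, and these intervals did not overlap. Pfkl was at 36.5 CPM (34.4 to 38.6) in fibroblast-like cells and at 6.06 to 8.54 CPM in the other 4 classes. The fibroblast-like level was 6.02 times that of non-cycling mast cells. Among the other classes neighbours in the order overlapped, but the S phase level was 1.41 times (1.11 to 1.77) and the G2/M level 1.27 times (1.05 to 1.53) that of non-cycling mast cells.

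The middle and late steps were also highest in fibroblast-like cells, apart from Ldha. Aldoa was at 593 CPM in fibroblast-like cells, 369 in S phase, 345 in non-cycling and 308 in G2/M mast cells and 182 in macrophage-like cells, with no overlap between neighbours. Its second entry (ENSMUSG00000114515, beside ENSMUSG00000030695) had at most 0.294 CPM in any of the 5 classes and is not described further. Pgk1 was at 556 CPM in fibroblast-like cells, against 122 in S phase, 118 in G2/M and 67.7 in non-cycling mast cells and 57.6 in macrophage-like cells. This was the highest ratio to mast cells after Ndufa4l2, 8.22 (7.99 to 8.46).

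Eno1 had the same order of classes as Pgk1, with 256, 99.6, 95.6, 70.3 and 55.5 CPM, and for both genes the S and G2/M intervals overlapped. Pkm was at 354 CPM in fibroblast-like cells, 146 in S phase, 132 in G2/M, 96.9 in non-cycling mast cells and 92.0 in macrophage-like cells, where the last 2 overlapped. Ldha broke the pattern. It was highest in S phase mast cells, at 613 CPM (598 to 628), then in G2/M at 522, fibroblast-like cells at 468, non-cycling mast cells at 376 and macrophage-like cells at 196. The fibroblast-like level was only 1.25 times that of non-cycling mast cells.

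**Figure D1:**
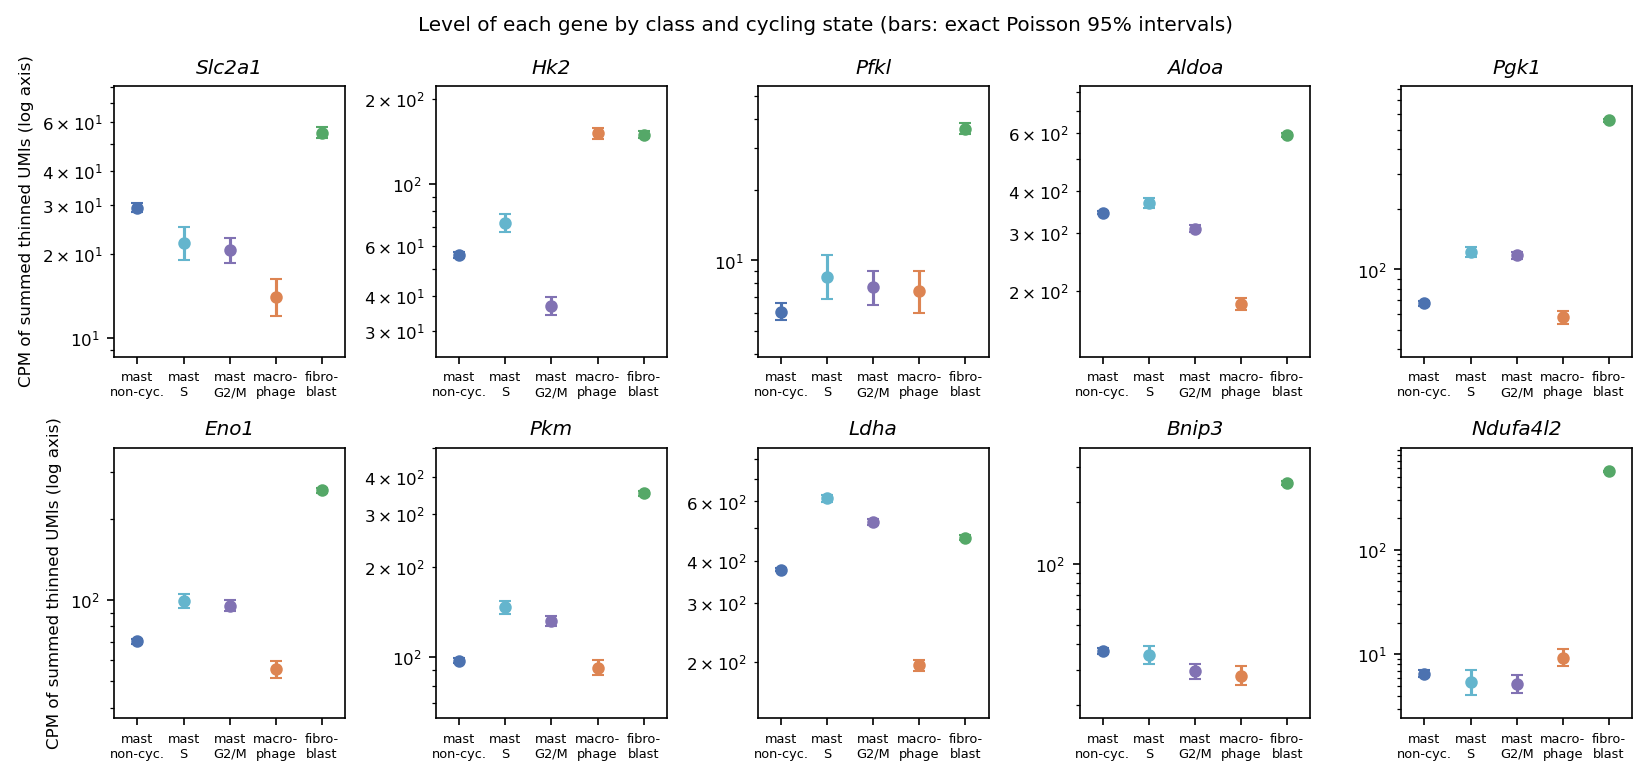
Level of each of the 10 genes in the 5 classes, as CPM of summed thinned UMIs on a log axis that differs between panels; points are levels and bars exact Poisson 95% intervals. The fibroblast-like point is highest for 8 genes, Hk2 is level between macrophage-like and fibroblast-like cells at 151 and 149 CPM, and Ldha is highest in S phase mast cells at 613 CPM.

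Part of the fibroblast-like and mast cells carried the same tag. Most mast cells (73.2%) had the tag named Cafum alone, as had 6.84% of fibroblast-like cells, while 47.5% of fibroblast-like cells had the tag named Matrigel and 65.2% of macrophage-like cells the tag named Macrophages. Among cells with the Cafum tag alone, 361 fibroblast-like and 11024 non-cycling mast cells, 8 of the 10 genes were higher in fibroblast-like cells, against 25.8% of all genes tested. The Ndufa4l2 ratio was then 69.2, that of Pgk1 6.06 and that of Bnip3 5.82. Aldoa moved from 1.72 times to 1.28 times and Ldha from 1.25 to 1.05. In these fibroblast-like cells the median ratio of the 7 mast cell markers was 0.360, and its part in the smaller ratios was not tested.

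**Figure D2:**
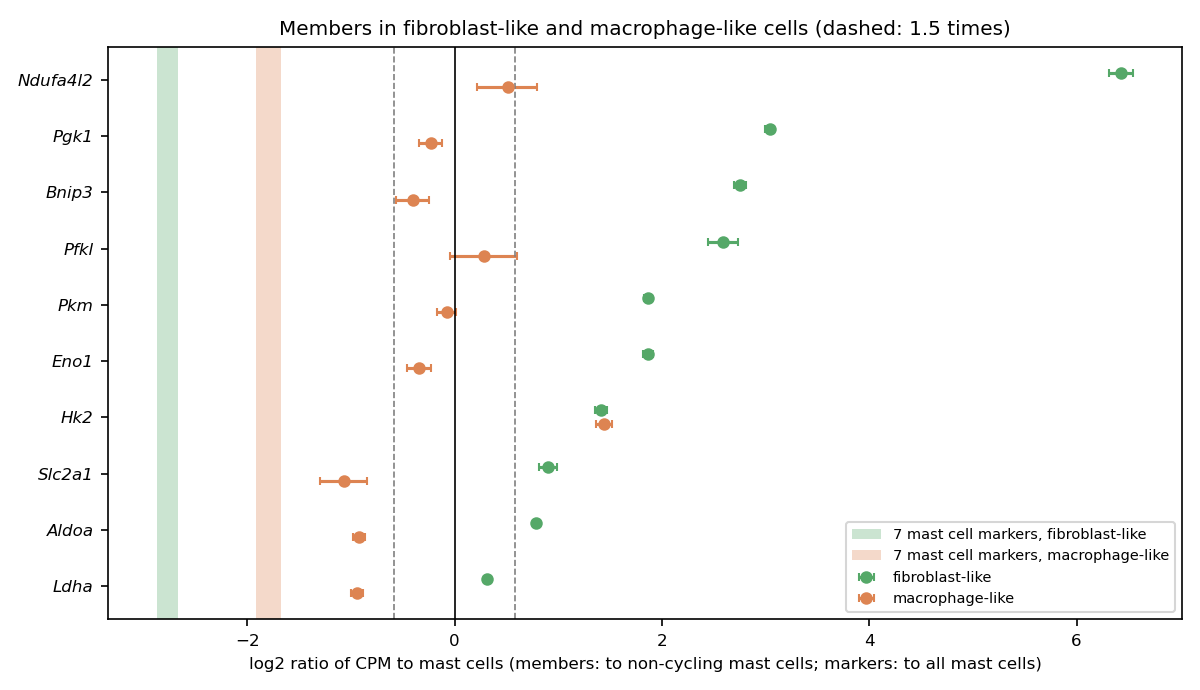
Log2 ratio of each gene in fibroblast-like (green) and macrophage-like (orange) cells to non-cycling mast cells, with exact 95% intervals; the shaded bands show the range of the 7 mast cell markers relative to all mast cells, and dashed lines mark 1.5 times. The green points run from 0.32 for Ldha to 6.43 for Ndufa4l2, and Hk2 is the one gene whose orange point lies beyond the upper line, at 1.44.

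The isozymes and paralogues of the 10 genes did not all share this direction. Of 12 such genes, 10 passed the minimum of 5 CPM in the comparison of fibroblast-like with non-cycling mast cells. Of these, 4 were higher and 6 lower, with a median log2 ratio of -0.76. Among all genes tested 31.3% were higher and 24.3% lower, so the count of higher genes is near that share. For glucose entry, Slc2a3 (the transporter GLUT3) stood at 36.2 CPM in the fibroblast-like class against 77.2 CPM in mast cells, opposite to Slc2a1. For the first step, Hk1 was at 52.2 against 124 CPM, opposite to Hk2. Both phosphofructokinase partners were lower, Pfkp at 56.1 against 120 CPM and Pfkm at 9.82 against 15.4 CPM, where Pfkl was higher.

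Aldoc was at 4.17 against 12.3 CPM, and Ndufa4, the respiratory chain subunit to which Ndufa4l2 is related, was at 327 against 596 CPM. The lactate dehydrogenases differed the other way. Ldhb, which makes the subunit that favours pyruvate formation, was at 23.9 CPM in fibroblast-like cells and 0.493 CPM in mast cells, a ratio of 48.4, while Ldha was nearly level. Eno2 (9.72 against 6.23 CPM), Eno1b (11.8 against 3.45) and Bnip3l (165 against 103) were higher in fibroblast-like cells, as were Eno1 and Bnip3. Eno1b is a close copy of Eno1, so the split of reads between them is uncertain. Eno3 and Hk3 did not pass the minimum in this comparison.

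**Figure D3:**
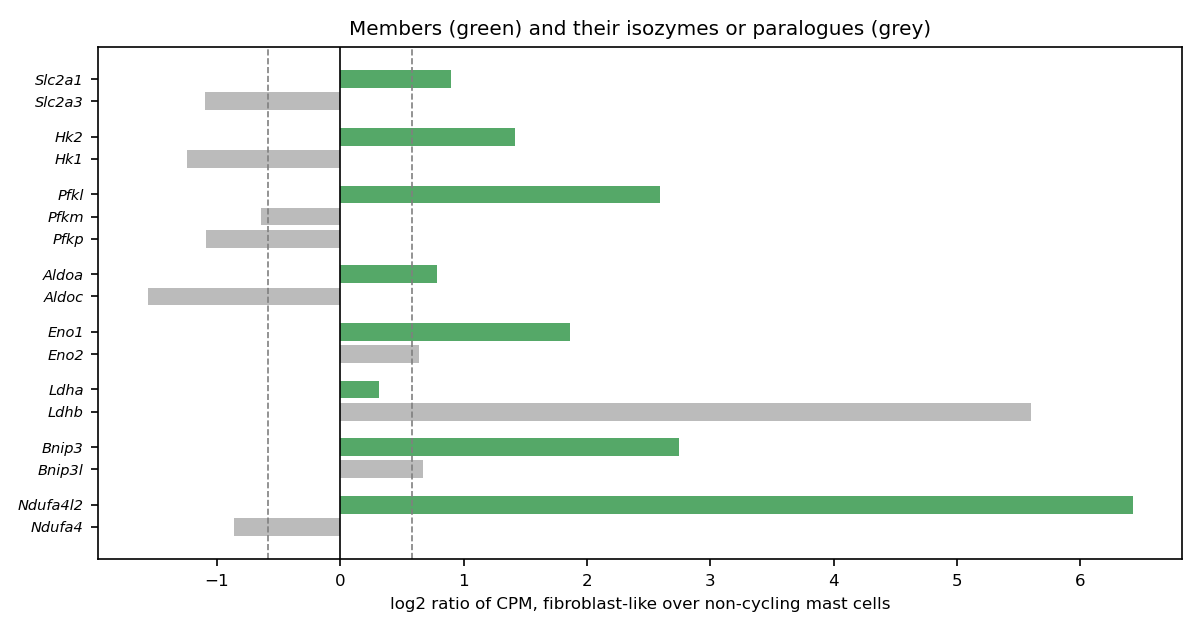
Log2 ratio of CPM in fibroblast-like over non-cycling mast cells for 8 of the 10 genes (green) and their isozymes or paralogues (grey), with dashed lines at 1.5 times. Grey bars point left for Slc2a3, Hk1, Pfkm, Pfkp, Aldoc and Ndufa4, whereas Ldhb reaches 5.60 beside 0.32 for Ldha.

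Other genes of the same pathways were read from 3 lists. Of 15 further genes of glycolysis and lactate transport, 11 passed the minimum, 6 were higher in fibroblast-like than in non-cycling mast cells and 3 lower. Of all genes tested 31.3% were higher and 24.3% lower, so the count of lower genes is near that share. Triose phosphate isomerase (Tpi1) was at 258 against 69.2 CPM, and the lactate transporters Slc16a1 and Slc16a3 were at 24.5 against 5.38 and 34.4 against 9.38 CPM. The sugar transporters Slc2a6 (5.49 against 31.2 CPM) and Slc2a9 (2.90 against 11.5) were lower. Among 12 genes of pyruvate entry into mitochondria, 4 were higher, near the 31.3% of all genes, and none lower. Of the 4, 2 code for kinases that inhibit pyruvate dehydrogenase, Pdk4 at 23.0 against 0.375 CPM and Pdk1 at 28.5 against 2.82 CPM. The others were Pdp1, the phosphatase that activates the complex, at 12.7 against 3.93 CPM, and Pdha1, a subunit of it, at 54.4 against 25.6 CPM. A further kinase, Pdk2, was at 5.96 against 8.73 CPM, within 1.5 times.

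Of 32 hypoxia-response genes, 31 were found in the matrix, 29 passed, 19 were higher in fibroblast-like cells and 3 were lower (Car12, Vhl and Bhlhe40). The shares over all genes were 31.3% higher and 24.3% lower. Highest by ratio were Cox4i2, a respiratory chain subunit isoform, at 42.8 against 0.461 CPM, and Adm (adrenomedullin, a vasodilator peptide) at 76.6 against 1.26. Next came Egln3, a prolyl hydroxylase that acts on HIF, at 39.5 against 0.665, then the HIF subunit genes Hif3a at 14.3 against 0.247 and Epas1 (HIF-2 alpha) at 70.7 against 1.28. Hif1a itself was at 224 CPM in the fibroblast-like class against 198 CPM in non-cycling mast cells, within 1.5 times. The median log2 ratio over the 29 genes was 1.72, against 0.05 for all genes tested. HIF is controlled mainly through protein stability, which RNA does not show.

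Macrophage-like cells differed from non-cycling mast cells in 4 of the 10 genes. One was higher and 3 were lower, while 24.6% of 9753 genes were higher and 24.5% lower, so neither count stands far from the share over all genes. Hk2 was 2.71 times higher (2.57 to 2.86). Slc2a1 was 2.10 times lower, Ldha 1.92 times lower and Aldoa 1.89 times lower. The log2 ratios of the other 6 lay between -0.40 for Bnip3 and 0.51 for Ndufa4l2, which in these cells was at the background level given above.

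The other hexokinases differed in direction. Hk3, a hexokinase of myeloid cells, was at 40.2 CPM in this class against 0.311 CPM in mast cells, as Hk2 was higher, whereas Hk1 was at 75.0 against 124 CPM. Of 8 isozymes and paralogues that passed, Hk3 was higher and 5 were lower, Hk1, Slc2a3 (28.6 against 77.2 CPM), Aldoc (3.82 against 12.3), Pfkm (6.76 against 15.4) and Ndufa4 (348 against 596). The shares over all genes were 24.6% higher and 24.5% lower. Of the glycolysis list 3 were higher and 4 lower of 12 that passed, against the same shares. Pfkfb3, which makes the activator of phosphofructokinase, was at 122 against 24.8 CPM and Slc16a1 2.04 times higher, while Slc2a6 was at 13.4 against 31.2, Gapdh at 387 against 677 and Pgam1 at 91.3 against 161.

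Of the hypoxia list 5 were higher and 9 lower of 22, with a median log2 ratio of -0.43 against -0.11 over all genes. The shares over all genes were 24.6% higher and 24.5% lower. Tfrc (the transferrin receptor) was at 49.9 against 5.01 CPM, Arnt (the partner of HIF alpha subunits) at 109 against 30.3, Selenbp1 at 49.6 against 16.3 and Hilpda (a lipid droplet protein) at 31.3 against 10.9. Car12 (a carbonic anhydrase) was the lowest by ratio, at 12.5 against 36.6 CPM, which is 2.93 times lower. Of 10 pyruvate genes that passed, Pdp1 was higher and Pdk2 and the pyruvate carrier gene Mpc1 (100.3 against 157 CPM) were lower. Neither count exceeds the share over all genes.

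Mast cell RNA was uneven among macrophage-like cells. The 694 cells with several tags had a summed level of the 7 mast cell markers of 36921 CPM, and the 1367 cells with the Macrophages tag alone had 9303 CPM. Hk2 was at 121 CPM in the former and 168 CPM in the latter, Slc2a1 at 22.6 and 9.14, Aldoa at 244 and 149, and Ldha at 284 and 149. With 1-tag cells only, the log2 ratio to non-cycling mast cells was 1.58 for Hk2, -1.60 for Slc2a1, -1.35 for Ldha, -1.18 for Aldoa and -0.62 for Bnip3. So all 4 differences were larger in cells with less mast cell RNA, and Bnip3 passed 1.5 times as well. A finer clustering (resolution 1 in place of 0.5) split the class into 1153 cells led by Mrc1 and Cd74, with 1314 CPM of the mast cell protease Cma1, and 943 cells led by S100a8 and S100a9, with 13300 CPM; the latter did not get a macrophage name on their own. The first had Hk2 at 176 and Slc2a1 at 6.79 CPM, the second 120 and 22.8 CPM.

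Within mast cells the cycling states differed less in these genes than the classes did, with log2 ratios from -0.60 to 0.86 against non-cycling cells. In S phase 3 of 10 were higher than in non-cycling cells and none lower, against 16.6% of 9321 genes higher and 11.1% lower. These were Pgk1 at 1.81 times (1.70 to 1.92), Ldha at 1.63 times (1.59 to 1.68) and Pkm at 1.51 times (1.43 to 1.60). The interval for Pkm includes 1.5. Slc2a1 was 1.34 times lower, and Bnip3 and Ndufa4l2 had intervals that include no difference. The median log2 ratio was 0.44 over the 10 genes and -0.01 over all genes tested.

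In G2/M 1 of 10 was higher and 1 lower, against 13.5% of 9255 genes higher and 9.72% lower. Pgk1 was 1.74 times higher (1.65 to 1.83). Hk2 was 1.51 times lower, at a log2 ratio of -0.60 (-0.72 to -0.48), an interval that includes 1.5 times. Hk2 and Aldoa had their 2 phases on opposite sides of the non-cycling level. For Aldoa the log2 ratios were small, 0.097 in S phase and -0.162 in G2/M. Hk2 was 1.97 times lower in G2/M than in S phase. Ldha, Pkm and Eno1 were 1.39, 1.36 and 1.36 times higher, and Slc2a1 1.42 times lower.

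Some of these differences were not seen within clusters, and 2 mast cell clusters hold most of the G2/M cells. Cluster 5, led by mitotic genes, had 87.3% of its cells in G2/M. Cluster 6, led by histone genes and Esco2, had 99.6% in S or G2/M, with 33.1% in S and 66.6% in G2/M. Hk2 was at 43.5 CPM in cluster 6. How well the scores part S phase from G2/M in cluster 6 was not tested, and the values of both phases depend on it. Within clusters 0, 1 and 3, which hold most other mast cells, Pgk1 was higher in S phase by log2 ratios of 0.80, 0.51 and 0.65, and Ldha by 0.68, 0.35 and 0.57. For G2/M the clusters did not share the direction of Hk2. Its log2 ratio was -0.07 in cluster 0, 0.23 in cluster 1, 0.42 in cluster 3 and -0.50 in cluster 5. Ldha in G2/M was at 0.25, 0.04, 0.12 and -0.11 in these clusters, and only the interval in cluster 0 excludes no difference. Eno1 was at 0.14, 0.57, 0.22 and -0.21, and Pkm at 0.14, 0.10, -0.10 and 0.07. With clusters 0, 1 and 3 only, the G2/M log2 ratio was 0.15 for Hk2 and 0.34 for Pgk1, neither of which passes 1.5 times. The clusters hold 142, 60 and 58 G2/M cells, so these intervals are wide. Cycling cells were the deeper ones before thinning, and the part of depth in these differences was not tested beyond the thinned and unthinned values.

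**Figure D4:**
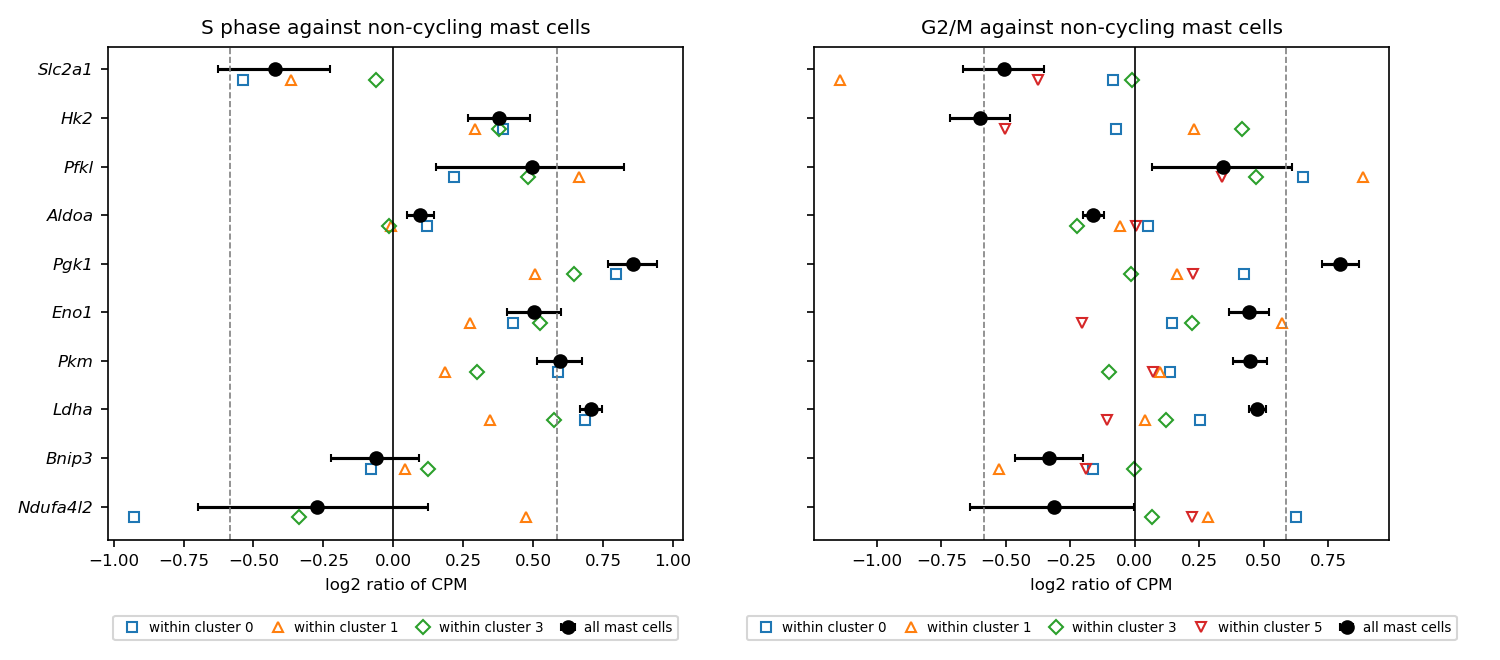
Log2 ratio of each gene in S phase (left) and G2/M (right) to non-cycling mast cells, over all mast cells (black, exact 95% intervals) and within single clusters (open symbols, without intervals); dashed lines mark 1.5 times. Pgk1 is right of 0 in every S phase value, whereas the within-cluster values of Hk2 in G2/M run from -0.50 to 0.42.

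The pathway lists also split in cycling mast cells. In G2/M, Tpi1 was at 126 against 69.2 CPM and the lactate transporter Slc16a1 at 8.22 against 5.38, while Pfkfb2, Pfkfb4 and Slc2a9 were lower. Of 23 hypoxia-response genes that passed, 2 were higher and 5 lower, where 13.5% and 9.72% of all genes were. The higher ones were Tfrc (15.3 against 5.01 CPM) and the cytokine gene Mif (234 against 114), and among the lower were Ndrg1 at 29.4 against 79.3, Vegfa (a vascular growth factor) at 8.17 against 16.9 and Bhlhe40 (a transcription repressor) at 127 against 248. In S phase 3 were higher and 4 lower, where 16.6% and 11.1% of all genes were. Tfrc was at 23.1 CPM, Mif at 261 and Higd1a at 275 against 141, and Ndrg1 was 2.74 times and Mxi1 2.52 times lower. Pdk2, another pyruvate dehydrogenase kinase, was at 3.63 CPM in S phase and 3.89 in G2/M, against 8.73.

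Of the 10 genes, Ndufa4l2 and Bnip3 differed most in S phase fibroblast-like cells from non-cycling ones, and Ndufa4l2 most in G2/M. Ndufa4l2 was at 599 CPM in 4663 non-cycling cells, 251 in 134 S phase cells and 281 in 484 G2/M cells. Bnip3 was at 263, 126 and 155 CPM, and Slc2a1 at 57.3, 43.5 and 33.4. In G2/M the log2 ratios of Slc2a1, Bnip3, Pfkl and Hk2 lay close together, at -0.78, -0.77, -0.73 and -0.65. Eno1 was at 256, 265 and 253 CPM and Ldha at 454, 597 and 564. The 6 fibroblast markers moved with these values, at 13201 CPM in non-cycling, 6811 in S phase and 6972 in G2/M cells. The median cell held 12, 74 and 48 UMIs of the mast cell markers, and 23.2%, 44.8% and 36.0% of cells carried several tags. The part of these shifts in the differences was not tested. Within 3 clusters from the finer clustering, Ndufa4l2 was lower in cycling cells by log2 ratios of -0.54, -1.08 and -1.32 and Bnip3 was at 192 against 291, 122 against 173 and 124 against 247 CPM. Over all cells, Ldha was thus higher in both phases in mast cells and in fibroblast-like cells, but not within every cluster. In the 3 finer fibroblast-like clusters its log2 ratios in cycling cells were 0.24, 0.32 and -0.008. Slc2a1 was lower over all cells, except that its interval in S phase fibroblast-like cells includes no difference. Pgk1 was higher in cycling mast cells and lower in cycling fibroblast-like cells, at 402 and 459 against 571 CPM. These differences between classes were not tested.

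Fibroblast-like cells also varied among themselves, Ndufa4l2 most of the 10 genes. The finer clustering gave 3 larger groups, of which cluster 1 alone was named fibroblast-like by its own markers. Cluster 1 (3474 cells) had Ndufa4l2 at 639, Bnip3 at 284 and Hk2 at 169 CPM. Cluster 11 (1194 cells), led by Crabp1 and Dlk1 and with 28.2% of cells cycling, had 269, 159 and 113 CPM. In it Dlk1 (a marker of preadipocytes) was at 145 CPM but the adipocyte gene Adipoq at 0.419 CPM. The smooth muscle marker Acta2 was also among its 10 leading genes. Cluster 13 (524 cells), with Adipoq at 32.1 CPM, had Ndufa4l2 at 785, Bnip3 at 238 and Hk2 at 97.3 CPM, and also the highest Aldoa (698), Pgk1 (698), Pkm (538) and Ldha (610). Cluster 15, with 51 cells, had Ndufa4l2 at 65.4, Bnip3 at 75.2, Pgk1 at 118 and Aldoa at 176 CPM but Hk2 at 186. All 7 mast cell markers passed in it, so that the finer clustering named it mast cell-like. Its Cma1 level was 9948 CPM, against 3099 CPM in cluster 1. In cluster 13 all 7 passed as well, but it stayed unnamed, with Cma1 at 6338 CPM. The median depth of cluster 13 was 13438.5 UMIs, against 31347 in cluster 1. Groups under 50 cells are not described.

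By tag, fibroblast-like cells with the Matrigel tag had 3 of 10 genes higher than those with the Cafum tag and none lower, against 14.5% of 10532 genes higher and 11.3% lower. These were Pfkl (43.1 against 27.7 CPM), Eno1 (288 against 186) and Pkm (394 against 260), all between 1.51 and 1.56 times. Ndufa4l2 was at 622 against 443 CPM. The mast cell markers moved with the tag, at 4261 CPM in the 2508 Matrigel-tagged cells and 24272 CPM in the 361 Cafum-tagged cells. After a share of mast cell RNA was subtracted, none of the 10 reached 1.5 times and the median log2 ratio fell from 0.52 to 0.09. Ndufa4l2, Bnip3, Hk2 and Slc2a1 then changed direction, from log2 ratios of 0.49, 0.24, 0.22 and 0.20 to -0.11, -0.28, -0.17 and -0.12. Of all genes, 14.3% were higher and 6.56% lower after the subtraction, so that higher genes made up 68.5% of those called, against 56.1% before. What a tag stands for is not explained in the labels.

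**Figure D5:**
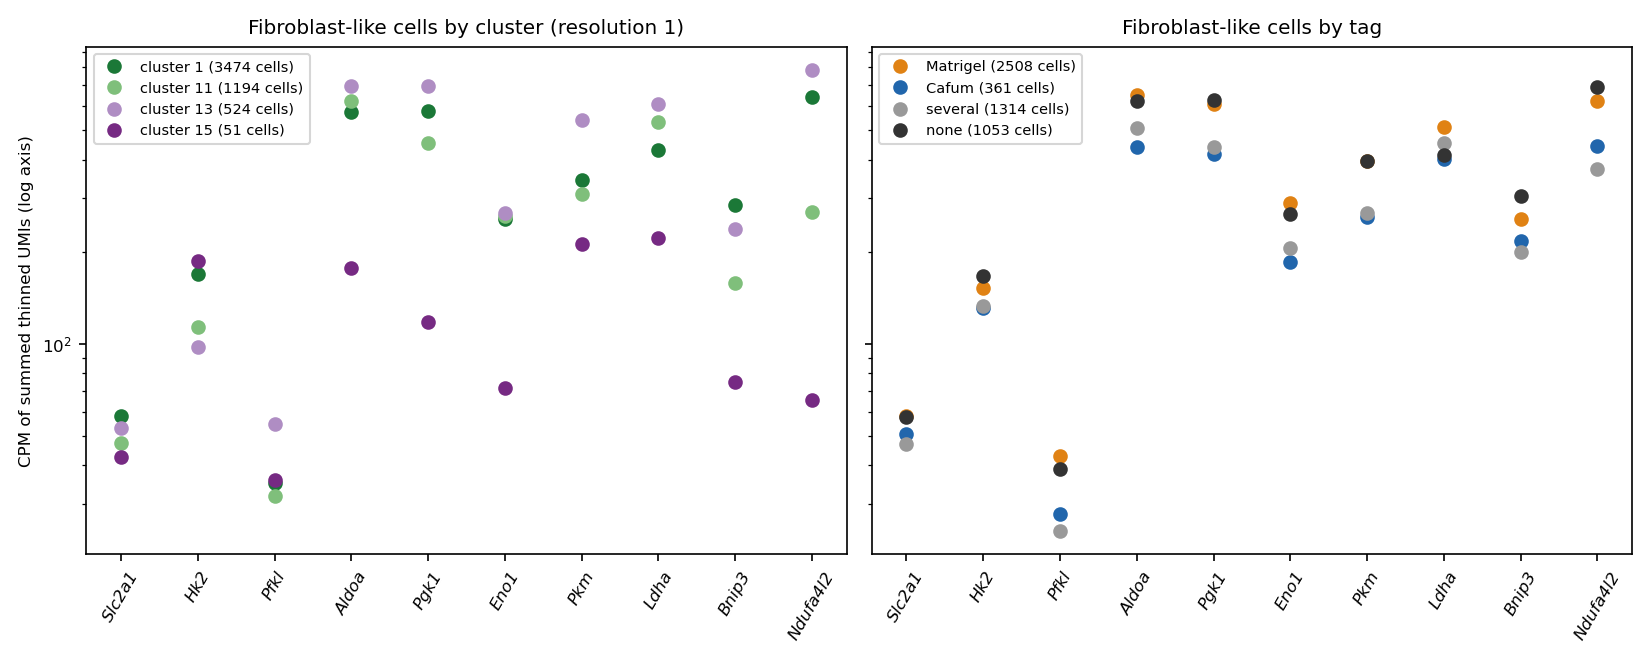
Level of each gene in fibroblast-like cells by cluster of the finer clustering (left) and by tag (right), as CPM of summed thinned UMIs on a log axis, with the number of cells in the legend and without intervals. Ndufa4l2 spans 65.4 to 785 CPM between clusters and 373 to 692 CPM between tag groups.

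From cell to cell the 10 genes moved together only weakly. Over thinned fibroblast-like cells the 45 pairs had a median Pearson r of 0.10, and the highest was 0.31 between Pgk1 and Ndufa4l2. In non-cycling mast cells the median was 0.01. These are sparse counts from shared libraries, and the values are a description. At 6000 UMIs the median non-cycling mast cell held 2 UMIs of Aldoa and of Ldha and 0 of the other 8 genes, whereas the median fibroblast-like cell held 3 of Aldoa, Pgk1, Ldha and Ndufa4l2.

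Over 9 clusters of 100 cells or more, the genes whose log2 level was most like each member were named among 6255 genes. The clusters share 1 library, and of the 9, 5 are mast cell-like, 2 fibroblast-like, 1 macrophage-like and 1 unnamed. Ndufa4l2 was most like Mfap5, Sparc and Saa3 (r = 0.998 for each), Pgk1 like Echs1, Mif and P4hb (r = 0.97, 0.96 and 0.94) and Bnip3 like Malsu1, Timp3 and Cfl2. Hk2 was most like Cpq, Dst and Mndal, Slc2a1 like Dubr, Nbdy and Smad7, and Pfkl like Medag, Cdh11 and Csgalnact1. Aldoa was most like Rpl36a, Crtap and Gm14325, Eno1 like Lman1, P4hb and Ddost, Pkm like Fkbp11, Esd and Gpi1, and Ldha like Dnlz, Mrpl53 and Ccng1.

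In the GRCm38 annotation the 10 genes are spread over 6 chromosomes. Ldha, Aldoa and Bnip3 are on chromosome 7 (46841475 to 46855627, 126795234 to 126800751 and 138890836 to 138909519), Eno1 and Slc2a1 on chromosome 4 (150236721 to 150248879 and 119108711 to 119137983), and Ndufa4l2 and Pfkl on chromosome 10 (127514967 to 127517154 and 77986947 to 78010083). Hk2 is on chromosome 6 (82725025 to 82774454), Pkm on chromosome 9 (59656368 to 59679375) and Pgk1 on chromosome X (106187100 to 106203699). Ndufa4l2 overlaps Shmt2 on the other strand, and Aldoa, Bnip3, Hk2 and Slc2a1 also overlap genes on the other strand, so their counts could hold reads of those genes if strand was not used. Aldoa, Pgk1, Eno1 and Ldha have named copies or pseudogenes in the annotation, and the split of reads with them is uncertain.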

How the data were processed

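Droplet single-cell RNA sequencing of 1 pooled library was analysed. The deposited values are raw UMI counts per gene and barcode, made by the authors; per the file headers the software was Cell Ranger 7.0.0, and the submitters' processing notes also name STAR, R 4.1.3, Seurat 4.1.1 and build mm10. The use of strand and of intronic reads is not given in the sources used here. The 3 tag features (21.9% of UMIs) were kept out of gene totals.

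Barcodes under 500 genes or 1000 UMIs, or above 10% mitochondrial UMIs, were dropped, and 33964 passed. Scrublet in scanpy 1.11.5 called doublets at an expected rate of 27.9%; 3209 were removed, and 37.1% of simulated doublets lay above its threshold, so doublets remain. Cells were thinned to 6000 UMIs, which left out 2980 shallower cells: 1946 mast cell-like, 665 macrophage-like, 219 fibroblast-like and 150 unnamed. S and G2/M scores used 43 and 54 genes on thinned cells, and the larger score above 0 set the phase. Clustering used 2000 variable genes, 30 components, 15 neighbours and Leiden resolution 0.5, without 159 listed genes. A tag was called at 2 times its background (1.4 times for Cafum).

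Each comparison is the ratio of 2 CPM values with an exact 95% interval, and a gene counts as higher or lower at 1.5 times or more, among genes with a mean of 5 CPM or more over both groups. A gene can thus pass through its level in 1 group alone. The ratio script was tested on simulated data. The 10 genes, the pathway lists, the markers and the naming rule were chosen with earlier results of these data known. From each pathway list at most 5 genes per comparison were to be named, those with the largest ratio; Hif1a, Car12, Vhl, Bhlhe40 and Pdk2 in fibroblast-like cells, and the genes that describe the finer clusters, were chosen after their values were seen. Mast cell RNA was subtracted, in 1 alternative, at the median ratio of the 7 mast cell markers.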

Additional observations from a re-analysis of the deposited data

How the results depend on the processing

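Over 18 other settings, 15 listed beforehand and 3 added after seeing the data, 136 of 148 counts of genes past 1.5 times stayed within 1.5 times of the reported count. The number of the 10 genes lower in G2/M (1, Hk2) was 2 with at least 2000 UMIs per barcode or cycling called at a score above 0.1. It was 0 with called doublets kept, with the mean of each cell's CPM, with cycling called by cluster, with cells of 1 tag and, among the added settings, with Cafum-tagged cells only or with mast cell clusters mostly outside S and G2/M. In the last of these the log2 ratio of Hk2 reversed to 0.15, and the 1 gene higher was Pfkl in place of Pgk1. The number higher in macrophage-like cells (1) was 2 at resolution 1, where the class was its Cma1-poor cluster alone, and 2 with mast cell RNA subtracted; Ndufa4l2 joined Hk2 in both. The number higher with the Matrigel tag (3) was 6 with doublets kept and 0 with mast cell RNA subtracted. Where no construction is named, the cause was not tested. The number higher in fibroblast-like cells (9) was 8 in Cafum-tagged cells and 9 without the small fibroblast-like cluster. Leaving out clusters led by adipocyte markers was not run, since no cluster of the reported clustering was. No paired analysis was possible because the files hold 1 library. At this depth Pfkl and Ndufa4l2 in cycling mast cells rest on 55 to 142 UMIs.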

Other observations

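Among genes of the wider lists not described above, Gpi1 (glucose phosphate isomerase) was at 306 CPM in fibroblast-like and 109 CPM in non-cycling mast cells, and Fam162a, a mitochondrial protein induced in hypoxia, at 388 and 68.1 CPM. Mif was at 989 and 114 CPM and Loxl2, which crosslinks collagen, at 194 and 16.1 CPM. The collagen prolyl hydroxylases P4ha1 (250 and 92.9 CPM) and P4ha2 (94.5 and 28.8 CPM) were higher in fibroblast-like cells by 2.69 and 3.29 times. These were chosen after their values were seen.

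Macrophage-like cells in S phase (62 cells) and G2/M (101 cells) had Pgk1 at 145 and 95.7 CPM, against 52.9 CPM in 1933 non-cycling cells. Hk2 was at 86.0 and 101 CPM, against 156 CPM. The mast cell markers summed to 23366 and 23980 CPM in the cycling cells and to 18311 CPM in the others, and their part in these values was not tested.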
